A study of Mus musculus with 12 samples.

Results

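The 9 genes described here mark macrophages or belong to the growth factor axis that keeps macrophages alive. They comprise 2 ligands (Csf1 and Il34), their shared receptor (Csf1r), a transcription factor (Spi1), and 5 genes used to identify macrophages (Adgre1, Fcgr1, Cd68, Lyz2 and Mertk). They were taken by symbol from the count tables, where all 9 were present among 24422 features and all 9 passed the filter on low counts that left 16713 genes for testing. RNA came from the stromal vascular fraction of adipose tissue in mice, which is what remains of the tissue without its mature adipocytes, and the labels call the material primary stromal cells. Each of 4 groups held 3 libraries. SD mCherry mice (genotype p21+/mcherry) received a standard diet, and HFD mCherry mice had that genotype on a high-fat diet. HFD Tert mice (p21+/mcherry-Tert) and HFD TertCi mice (p21+/mcherry-TertCi) were also on the high-fat diet. In both knock-in lines the p21 promoter drives the telomerase reverse transcriptase cassette, and TertCi stands for the catalytically inactive form. Every group, controls included, therefore carries 1 modified p21 allele, and the promoter is not specific to a cell type. The series' design text calls the high-fat diet controls p21+/- without naming mCherry, and the labels were followed. Age, sex and fat depot are not given in the labels.

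Csf1r is a receptor tyrosine kinase on monocytes, macrophages and their relatives, and its activation by Csf1 or Il34 maintains macrophage survival and proliferation. Csf1 is made by stromal and endothelial cells among others, whereas Il34 is best known from skin and brain. Spi1 encodes PU.1, the factor that sets up myeloid gene expression, including that of Csf1r. In adipose tissue, macrophages accumulate during obesity, and the surface protein F4/80 (Adgre1) is the usual marker for counting them.

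The genomic windows ahead of the members are shown because Spi1 is one of them and PU.1 is known to bind purine-rich sites containing GAGGAA. RefSeq promoter sequence (GRCm38.p6, which corresponds to the mm10 build named in the submitters' processing notes) matched 5 of the 9 genes. Below are the 250 bases before the start site of Cd68 (chr11:69666171-69666420, minus strand) and Fcgr1 (chr3:96293970-96294219, minus strand), a pair that stood higher in HFD mCherry than in the other groups, and of Csf1 (chr3:107760470-107760719, minus strand), which stood high in all 3 high-fat diet groups. Each reads 5′ to 3′ on the gene's strand, and capitals mark GAGGAA or its reverse complement TTCCTC.
Cd68 promoter: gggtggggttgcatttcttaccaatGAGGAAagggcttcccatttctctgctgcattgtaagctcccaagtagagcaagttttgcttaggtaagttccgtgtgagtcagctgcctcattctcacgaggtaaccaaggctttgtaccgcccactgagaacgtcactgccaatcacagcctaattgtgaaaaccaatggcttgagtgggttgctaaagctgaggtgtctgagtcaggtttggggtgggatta
Fcgr1 promoter: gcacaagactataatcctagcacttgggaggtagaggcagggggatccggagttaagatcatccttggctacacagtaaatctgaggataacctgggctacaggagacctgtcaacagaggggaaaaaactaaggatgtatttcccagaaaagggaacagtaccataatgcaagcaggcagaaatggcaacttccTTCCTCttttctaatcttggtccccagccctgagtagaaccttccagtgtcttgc
Csf1 promoter: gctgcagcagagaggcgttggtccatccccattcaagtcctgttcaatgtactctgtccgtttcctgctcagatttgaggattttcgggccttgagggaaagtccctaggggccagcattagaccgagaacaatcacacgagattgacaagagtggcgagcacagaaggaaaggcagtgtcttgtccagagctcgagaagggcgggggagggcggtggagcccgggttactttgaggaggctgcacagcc
Cd68 had 1 match, starting 225 bases before the start site, and Fcgr1 had 1 on the opposite strand, starting 55 bases before it. The windows of Csf1, Lyz2 and Mertk held 0 matches. Lyz2 and Mertk, whose windows are not shown, also averaged higher in HFD mCherry than in each other group. Of 32851 promoter windows of this length, 23.3% held GAGGAA on either strand, so its presence in 2 of 5 is a description only, and the longer form GAGGAAGT (2.44% of windows), which contains the shorter one, was in none of the 5.

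The libraries held 16430330 to 19486965 counts. Crisp1, an epididymal secretory gene, was above 100 CPM (counts scaled for library size) in 8 libraries, 2 in each group, and below 1 CPM in the other 4. The libraries with little Crisp1 were SD mCherry replicate 2, HFD mCherry replicate 20, HFD Tert replicate 27 and HFD TertCi replicate 31. Adipose progenitor markers were detected in all libraries, with a summed level of 2793 to 21183 CPM over 9 genes. In a bulk sample fewer macrophages and less RNA per macrophage cannot be told apart. The labels do not say that the libraries come from separate animals, so p-values measure the spread between these libraries.

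On the high-fat diet, 7 of the 9 genes stood higher in HFD mCherry than in SD mCherry with no overlap between the libraries (as did 13.9% of all genes tested), from 2.89-fold for Fcgr1 to 11.5-fold for Cd68. Il34 and Mertk were the exceptions. In both knock-in groups the receptor, Spi1 and the macrophage markers were on average lower than in HFD mCherry, by 2.02-fold (Mertk) to 8.04-fold (Cd68) over the 6 knock-in libraries, whereas Csf1 differed by less than its error. Between active and inactive Tert no difference was detected, within wide intervals. None of these differences passed an adjusted p of 0.05 in edgeR's quasi-likelihood test, in which 8 genes in all (0.0479% of those tested) were called for the diet.

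**Figure D1:**
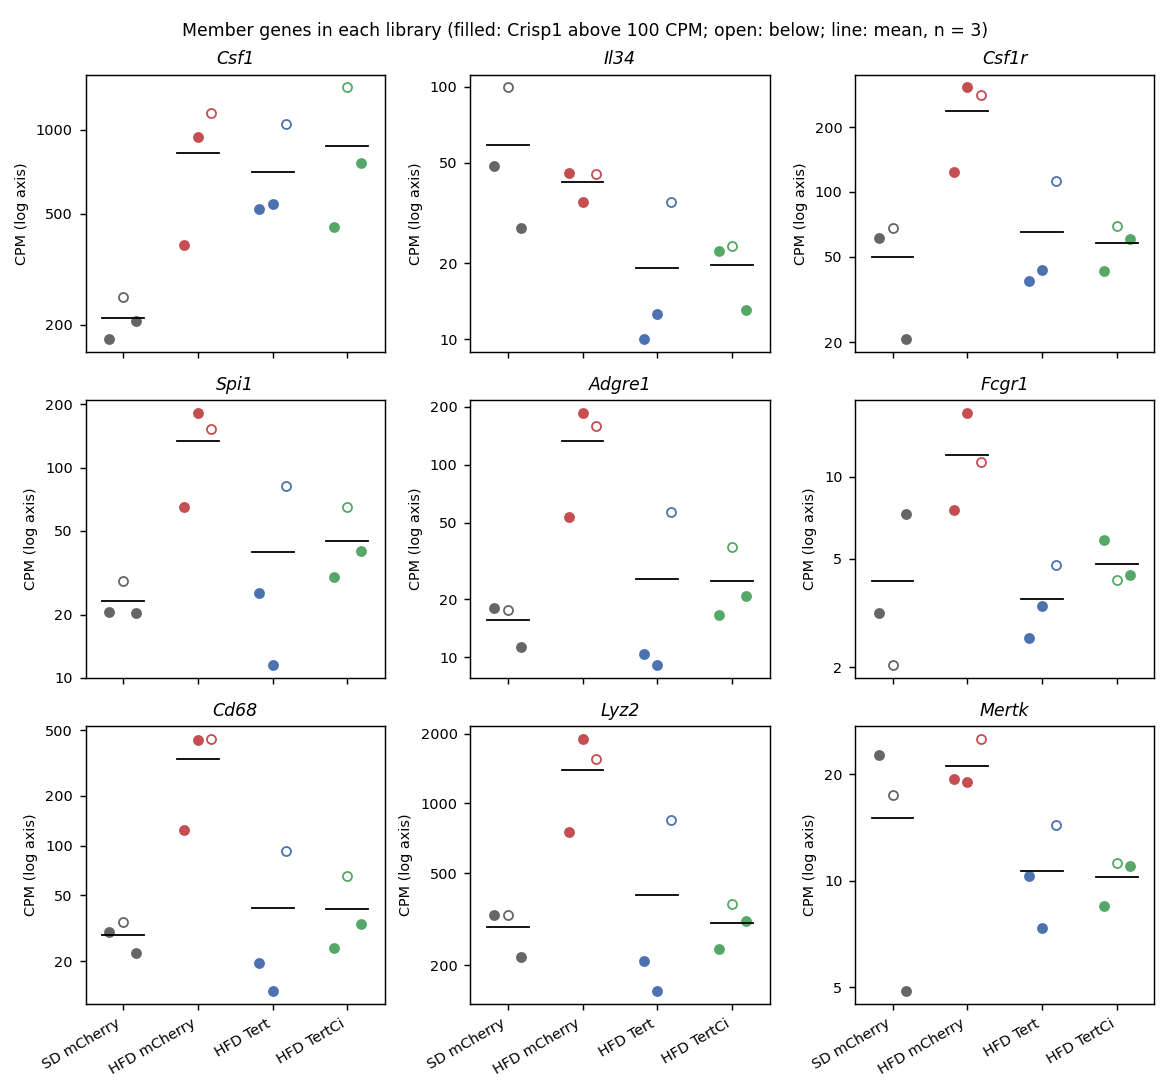
Level of each of the 9 genes in CPM (log axis, with its own range in each panel) in the 12 libraries, grouped by diet and genotype; points are libraries, filled where Crisp1 was above 100 CPM and open where below, and lines are means of 3. Cd68 runs from 124 to 441 CPM in HFD mCherry and from 13.1 to 92.4 CPM in the other 9 libraries, while Csf1 overlaps among the 3 high-fat diet groups.

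Csf1 (chr3:107741048-107760469, GRCm38, GENCODE M21, as for the genes that follow), the main macrophage growth factor, was at 177, 251 and 206 CPM in SD mCherry (replicates 1, 2 and 3) and at 385, 943 and 1148 CPM in HFD mCherry (replicates 15, 17 and 20). It stood at 522, 543 and 1047 CPM in HFD Tert (replicates 25, 26 and 27) and at 448, 1422 and 757 CPM in HFD TertCi (replicates 30, 31 and 33). All 9 high-fat diet libraries were thus above all 3 standard diet libraries, and the 3 high-fat diet groups overlapped. The diet difference was a log2 fold change of 1.96 ± 0.508 (SE, edgeR adjusted p = 0.0768). Against HFD mCherry the log2 fold change was -0.23 ± 0.491 in HFD Tert (SE, edgeR adjusted p = 0.844) and 0.0857 ± 0.490 in HFD TertCi (SE, edgeR adjusted p = 0.952). Over both knock-in groups it was -0.072, with a 95% interval of -1.01 to 0.863, which leaves room for a change of either sign. Without HFD mCherry replicate 20 the sign was positive in the Tert comparison (0.0828), and without HFD TertCi replicate 31 or HFD mCherry replicate 15 it was negative in the TertCi comparison (-0.45 and -0.26).

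Il34 (chr8:110741829-110805924), the second Csf1r ligand, was at 48.7, 99.8 and 27.6 CPM in SD mCherry and at 45.6, 34.9 and 45.3 CPM in HFD mCherry. The standard diet libraries spanned the high-fat diet ones, and the log2 fold change of -0.49 ± 0.527 (SE, edgeR adjusted p = 0.577) was smaller than its error and became 0.14 without SD mCherry replicate 2. In HFD Tert the gene was at 9.98, 12.6 and 34.9 CPM, and in HFD TertCi at 22.4, 23.4 and 13.0 CPM. The TertCi libraries all lay below HFD mCherry, while HFD Tert replicate 27 lay level with its lowest library (34.9037 against 34.8741 CPM). The log2 fold changes were -1.13 ± 0.534 in HFD Tert and -1.09 ± 0.533 in HFD TertCi (SE, edgeR adjusted p = 0.322 and 0.374). Without HFD Tert replicate 27 the Tert value was -1.89. In the GENCODE M21 annotation Il34 shares exon sequence with Gm15894 and Gm15895 on the opposite strand, and since strand use in counting is not stated its reads are uncertain to that extent.

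Csf1r (chr18:61100598-61132149) itself was at 60.8, 67.6 and 20.7 CPM in SD mCherry and at 124, 307 and 283 CPM in HFD mCherry. It was at 38.7, 43.6 and 113 CPM in HFD Tert and at 43.2, 69.8 and 60.7 CPM in HFD TertCi. HFD mCherry held the 3 highest libraries of the series, and both knock-in groups overlapped SD mCherry. The diet difference was 4.78-fold (log2 fold change 2.26 ± 0.554, SE, edgeR adjusted p = 0.0729). HFD Tert stood 3.65-fold and HFD TertCi 4.11-fold below HFD mCherry (log2 fold changes -1.87 ± 0.547 and -2.04 ± 0.550, SE, edgeR adjusted p = 0.198 and 0.197). With HFD Tert replicate 27 left out, the Tert value was -2.53. The highest Tert library, replicate 27, was close to the lowest HFD mCherry library, replicate 15. Csf1r shares exon sequence with Hmgxb3 on the opposite strand, which was at 36.0 to 45.0 CPM in HFD mCherry and 20.3 to 33.9 CPM in the other 9 libraries, so it moved in the same direction over a smaller range, and its part in the Csf1r counts was not tested.

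Receptor and main ligand were set against each other per exon length. Scaled by exon length, Csf1 exceeded Csf1r 3.40-, 3.37- and 4.44-fold in the HFD mCherry libraries. The ratio was 14.7, 13.6 and 10.1 in HFD Tert and 11.4, 22.3 and 13.7 in HFD TertCi. All 6 knock-in libraries lay above the 3 HFD mCherry libraries. On the standard diet the ratio was 3.19, 4.06 and 10.9, so SD mCherry replicate 3 reached the knock-in range and the other two did not. The pattern was noticed in these data, and the ratio was not tested. Between the ligands, Csf1 exceeded Il34 per exon length 1.35-, 0.934- and 2.77-fold in SD mCherry and 3.13-, 10.04- and 9.41-fold in HFD mCherry. The factors were 19.4, 15.97 and 11.1 in the Tert group and 7.41, 22.5 and 21.6 in the TertCi group. The 2 ligands were thus near parity only on the standard diet, in replicates 1 and 2.

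**Figure D2:**
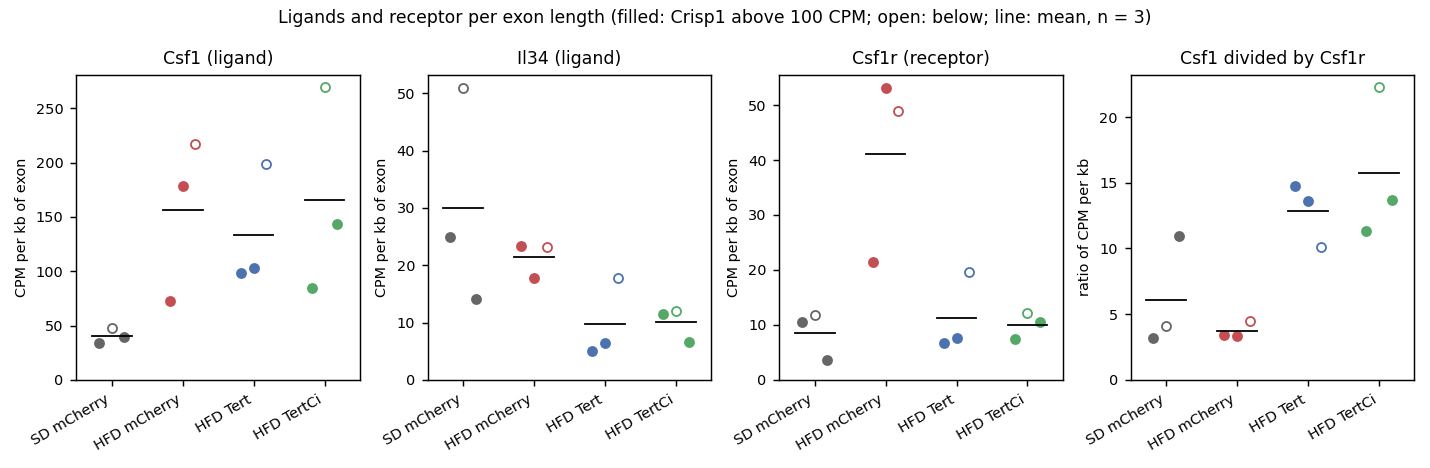
Level per exon length (CPM per kb) of Csf1, Il34 and Csf1r, and the ratio of Csf1 to Csf1r on that scale, in the 12 libraries; points are libraries, filled where Crisp1 was above 100 CPM and open where below, and lines are means of 3. The ratio runs from 3.37 to 4.44 in HFD mCherry and from 10.1 to 22.3 in the 6 knock-in libraries.

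Spi1 (chr2:91082390-91115756), which encodes PU.1, was at 20.6, 28.8 and 20.4 CPM in SD mCherry and at 65.1, 182 and 153 CPM in HFD mCherry. It was at 25.4, 11.5 and 81.6 CPM in HFD Tert and at 30.04, 64.8 and 40.2 CPM in HFD TertCi. The diet groups were separate, all HFD TertCi libraries lay below HFD mCherry, replicate 31 by a small margin, and HFD Tert spread from below the standard diet range to above the lowest HFD mCherry library. Log2 fold changes were 2.52 ± 0.653 for the diet, -1.75 ± 0.635 for Tert and -1.57 ± 0.632 for TertCi (SE, edgeR adjusted p = 0.0769, 0.238 and 0.292). Without HFD Tert replicate 27 the Tert value was -2.85.

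Adgre1 (chr17:57358691-57483527), the F4/80 antigen, was at 18.1, 17.6 and 11.2 CPM in SD mCherry and 53.7, 186 and 160 CPM in HFD mCherry. It was at 10.4, 9.08 and 57.1 CPM in HFD Tert and at 16.5, 37.3 and 20.8 CPM in HFD TertCi. Except for HFD Tert replicate 27, each knock-in library was below each HFD mCherry library. The differences were a log2 fold change of 3.09 ± 0.745 for the diet, -2.38 ± 0.723 for Tert and -2.42 ± 0.724 for TertCi (SE, edgeR adjusted p = 0.0729, 0.207 and 0.212). The Tert value was -3.77 when HFD Tert replicate 27 was omitted.

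Cd68 (chr11:69664213-69666153), a glycoprotein of macrophage lysosomes and endosomes, had the widest range of the 9 genes (33.6-fold from the lowest to the highest library). It was at 30.04, 34.4 and 22.2 CPM in SD mCherry and at 124, 433 and 441 CPM in HFD mCherry. In the knock-in groups it was at 19.5, 13.1 and 92.4 CPM (HFD Tert) and 24.0, 65.9 and 33.5 CPM (HFD TertCi). Every HFD mCherry library was above all others in the series. Log2 fold changes were 3.52 ± 0.782 for the diet, -3.00 ± 0.764 for Tert and -3.02 ± 0.765 for TertCi (SE, edgeR adjusted p = 0.0685, 0.187 and 0.186), and the Tert value was -4.35 when HFD Tert replicate 27 was omitted. Over both knock-in groups the value was -3.01 ± 0.595 (SE, edgeR adjusted p = 0.0560), with a 95% interval of -4.32 to -1.69, and -3.68 without that library.

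Lyz2 (chr10:117277331-117282321), lysozyme, was the most abundant of the 9 genes per exon length in each group. It was at 329, 329 and 217 CPM in SD mCherry and at 750 (749.6), 1896 and 1550.0 CPM in HFD mCherry. HFD Tert held 209, 154 and 848 CPM, and HFD TertCi 234, 368 and 311 CPM. The TertCi libraries lay in or just above the standard diet range, HFD Tert replicates 25 and 26 lay below it, and HFD Tert replicate 27 lay above the lowest HFD mCherry library. Log2 fold changes were 2.26 ± 0.608 for the diet, -1.79 ± 0.598 for Tert and -2.1999 ± 0.607 for TertCi (SE, edgeR adjusted p = 0.0843, 0.224 and 0.201), and the Tert value was -2.94 without replicate 27.

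Fcgr1 (chr3:96282909-96293969) encodes CD64, the high-affinity IgG receptor, with 42 to 285 counts per library. These were the lowest counts of the 9 genes except in SD mCherry replicate 3, where Mertk had 84 and Fcgr1 126. Fcgr1 was at 3.16, 2.04 and 7.30 CPM in SD mCherry and at 7.57, 17.1 and 11.3 CPM in HFD mCherry. The groups were separate by a small margin, set by SD mCherry replicate 3. Its levels in HFD Tert (2.57, 3.36 and 4.76 CPM) and HFD TertCi (5.87, 4.18 and 4.36 CPM) were all below those of HFD mCherry. Log2 fold changes were 1.53 ± 0.500 for the diet, -1.75 ± 0.504 for Tert and -1.32 ± 0.497 for TertCi (SE, edgeR adjusted p = 0.119, 0.198 and 0.270), and the diet value was 2.21 without SD mCherry replicate 3.

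Mertk (chr2:128698956-128802894), a receptor for apoptotic cells that is used with Fcgr1 to define tissue macrophages, overlapped between the diets. It was at 22.7, 17.4 and 4.87 CPM in SD mCherry and at 19.3, 19.0 and 25.1 CPM in HFD mCherry, a log2 fold change of 0.50 ± 0.465 (SE, edgeR adjusted p = 0.515). SD mCherry replicate 3 alone lay below the rest, and without it the value was 0.0772. In HFD Tert (10.3, 7.37 and 14.3 CPM) and HFD TertCi (8.47, 11.2 and 11.03 CPM) all libraries were below HFD mCherry, with log2 fold changes of -0.99 ± 0.469 and -1.05 ± 0.470 (SE, edgeR adjusted p = 0.324 and 0.337). SD mCherry replicate 3 also had the lowest Csf1r and differed in a measure of transcript length. The median deviation of 1972 genes with at least 8 kb of exon, relative to that of 1271 genes with at most 2 kb, was -0.82 on the log2 scale in this library. It was -0.41 to 0.18 in the 6 knock-in libraries, 0.00109 to 0.73 in HFD mCherry and 0.29 and 0.10 in the other two SD mCherry libraries. The part of this difference in the Mertk and Csf1r values was not tested.

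Counted together, 0 of the 9 genes were called by edgeR in any comparison. At an unadjusted p under 0.05, 7 of 9 stood higher for the diet (against 14.1% of all genes tested), 6 lower for Tert (9.75%) and 7 lower for TertCi (8.92%). DESeq2 called 7 of 9 higher for the diet (8.07% of all genes with an adjusted p), 4 lower for Tert (2.98%) and 4 lower for TertCi (2.58%). Its 4 Tert genes were Cd68, Csf1r, Adgre1 and Fcgr1, and its 4 TertCi genes Cd68, Csf1r, Adgre1 and Lyz2. Limma-voom called 0 in each comparison (0.012% of all genes for TertCi, 0.0718% over both knock-ins, otherwise 0%), and edgeR called 0.012% of all genes for TertCi and 0% for Tert. The ranges did not overlap for 7 genes higher for the diet (13.9% of all genes), 4 genes lower for Tert (11.1%) and 8 genes lower for TertCi (12%). Median log2 fold changes of the 9 genes were 2.26, -1.75 and -1.57, beside -0.0753, -0.0534 and -0.0389 over all genes tested. The comparisons with HFD mCherry share its 3 libraries, so they are not independent of each other.

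With the mean of both knock-in groups set against HFD mCherry, edgeR called 28 genes in all (0.168%) and 0 of the 9, with 8 of 9 lower at an unadjusted p under 0.05 (13.4% of all genes), 4 of 9 without overlap (7.03%) and adjusted p-values from 0.0560 (Cd68) to 0.937 (Csf1). Csf1r had a log2 fold change of -1.95 ± 0.441 (SE, edgeR adjusted p = 0.0686). DESeq2 called 6 of 9 lower (5.38%), namely Cd68, Csf1r, Adgre1, Lyz2, Fcgr1 and Spi1. Single libraries moved the edgeR counts. Without HFD mCherry replicate 15, 6 of the 9 were called for the diet and 4 over both knock-ins, among 2082 and 690 genes called in all. Without HFD Tert replicate 27 the counts were 5 and 5, among 686 and 524 genes. Without SD mCherry replicate 3 they were 0 and 3, among 48 and 482 genes.

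**Figure D3:**
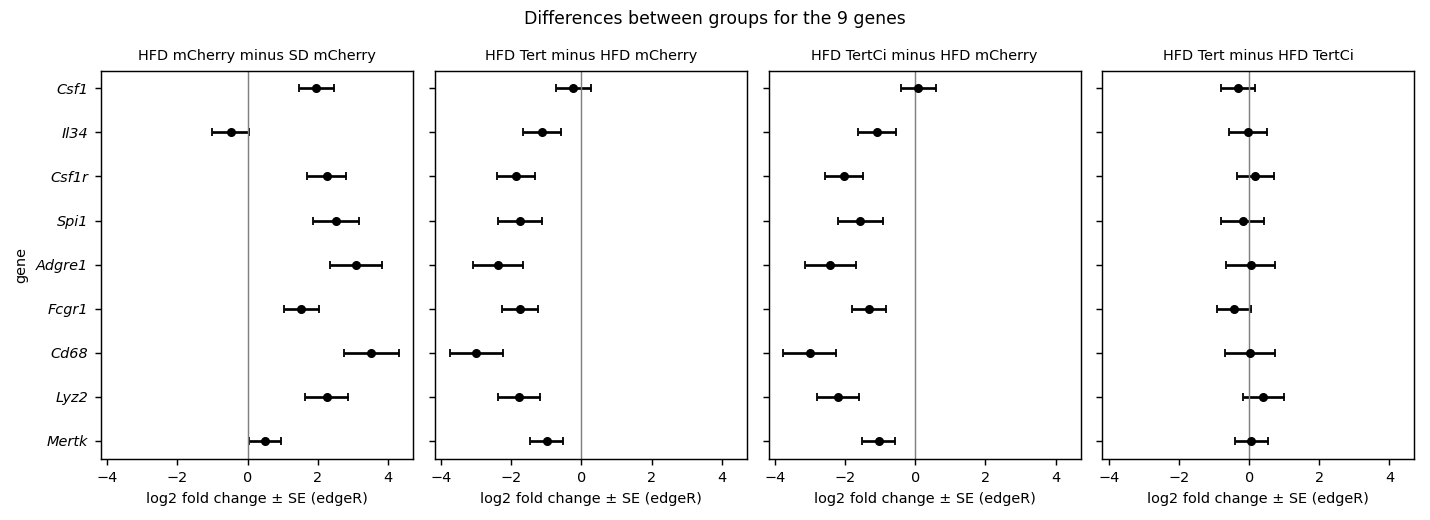
Log2 fold change of each of the 9 genes in 4 comparisons, named above each panel; points are edgeR estimates, bars are ± 1 SE and the vertical line marks no difference. Diet estimates reach 3.52 (Cd68), 8 of the 9 genes lie below 0 by more than 1 SE for both Tert and TertCi, with Csf1 near 0, and the estimates of Tert against TertCi lie between -0.43 and 0.41.

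Active and inactive Tert were compared directly, a contrast that addresses the catalytic activity. No member was called by edgeR, DESeq2 or limma-voom (0 of 9 each), 0 had an unadjusted p under 0.05 (1.36% of all genes did), and the libraries overlapped for all 9 (5.13% of all genes did not overlap, and DESeq2 called 0.0487%). Log2 fold changes ran from -0.43 ± 0.493 (SE) for Fcgr1 to 0.41 ± 0.582 (SE) for Lyz2. The 95% intervals were wide: -1.0005 to 1.34 for Csf1r, -1.55 to 1.59 for Cd68 and -1.40 to 0.768 for Csf1. They allow a difference of more than 2-fold in either direction for Cd68. Without HFD Tert replicate 27 the estimate for Cd68 changed from 0.0198 to -1.33 and that for Csf1r from 0.17 to -0.49, and 3 of the 9 genes had an unadjusted p under 0.05. With the epithelial covariate 4 of the 9 did, among them Cd68 (-0.78, edgeR unadjusted p = 0.00929) and Adgre1 (-0.80, edgeR unadjusted p = 0.0139). The adjusted p was 1 for both genes.

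The separation of libraries by Crisp1 was balanced over groups, and the members are set out within each kind. The kinds are not uniform in epididymal and epithelial markers, summed over 9 genes. HFD mCherry replicate 17, with Crisp1, was at 706 CPM, against 4073 to 18924 CPM in the rest of that kind. SD mCherry replicate 2, without Crisp1, was at 4274 CPM. Cd68 was at 433 CPM in HFD mCherry replicate 17 and 124 CPM in replicate 15, so their mean joins unlike libraries. Among the 8 libraries with Crisp1, Cd68 averaged 279 CPM in HFD mCherry, 26.1 in SD mCherry, and 16.3 and 28.7 in the Tert and TertCi groups (n = 2 each). In the 4 without it the values, in that order, were 441, 34.4, 92.4 and 65.9 CPM (1 library each). The corresponding levels of Csf1r were 215, 40.7, 41.2 and 51.9 CPM with Crisp1 and 283, 67.6, 113 and 69.8 CPM without. HFD mCherry was highest for both genes in each kind of library. Within the knock-in groups the library without Crisp1 was also the highest for Csf1, Il34, Csf1r, Spi1, Adgre1, Cd68, Lyz2 and Mertk. A fit to the 8 libraries with Crisp1 alone called 0 genes in all by edgeR, with log2 fold changes for Csf1r of 2.39 (diet) and -2.21 (both knock-ins), edgeR adjusted p = 0.162 and 0.113. Over both knock-ins this fit gave -2.27 for Spi1, -3.14 for Adgre1 and -3.68 for Cd68. With the mean level of epididymal and epithelial markers as a covariate, edgeR called 6 of the 9 genes for the diet, 5 for Tert, 5 for TertCi and 6 for both knock-ins, among 959, 979, 522 and 1537 genes called in all. With presence of Crisp1 as a block the counts were 6, 0, 0 and 5, among 1508, 0, 3 and 719 genes. The covariate also lowered the diet estimates, to 2.59 for Cd68, 2.20327 for Adgre1, 1.83 for Spi1, 1.63 for Lyz2 and 1.36 for Csf1. Those called for the diet in both fits were Csf1, Csf1r, Spi1, Adgre1, Cd68 and Lyz2.

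To see which members moved with the bulk of macrophage transcripts, each was set against the mean log2 CPM of 17 other core macrophage genes in the same library. That reference averaged 7.24 in HFD mCherry and 5.18 in SD mCherry, with 5.46 and 5.70 in the Tert and TertCi groups. Spi1, Lyz2 and Csf1r kept the steadiest difference from it, with an SD over the 12 libraries of 0.267, 0.289 and 0.425, against 1.22, 1.17 and 1.15 for their own log2 CPM. Adgre1 came close to Csf1r (SD 0.486), and within SD mCherry Csf1r varied more (SD 0.809, n = 3). Cd68 stood 0.93 ± 0.411 (SD) above the reference in HFD mCherry and -0.34 ± 0.175, -0.61 ± 0.442 and -0.46 ± 0.292 (SD, n = 3 each) relative to it in the standard diet, Tert and TertCi groups, so its difference between these groups was larger than that of the reference. Adgre1 was also highest relative to the reference in HFD mCherry, at -0.37 ± 0.312 (SD) in HFD mCherry and -1.14 to -1.32 in the other groups. Relative to the reference, Csf1 went the other way in the knock-ins, at 2.54 ± 0.192 and 2.31 ± 0.313 in the mCherry groups and 3.92 ± 0.539 and 3.92 ± 0.395 in HFD Tert and HFD TertCi (SD, n = 3 each). The level of Csf1 itself overlapped among the high-fat diet groups, while the reference averaged lower in the knock-ins than in HFD mCherry. Il34 and Mertk varied more relative to the reference (SD 1.11 and 0.781) than on their own (0.954 and 0.709). These are differences within libraries and were not tested.

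**Figure D4:**
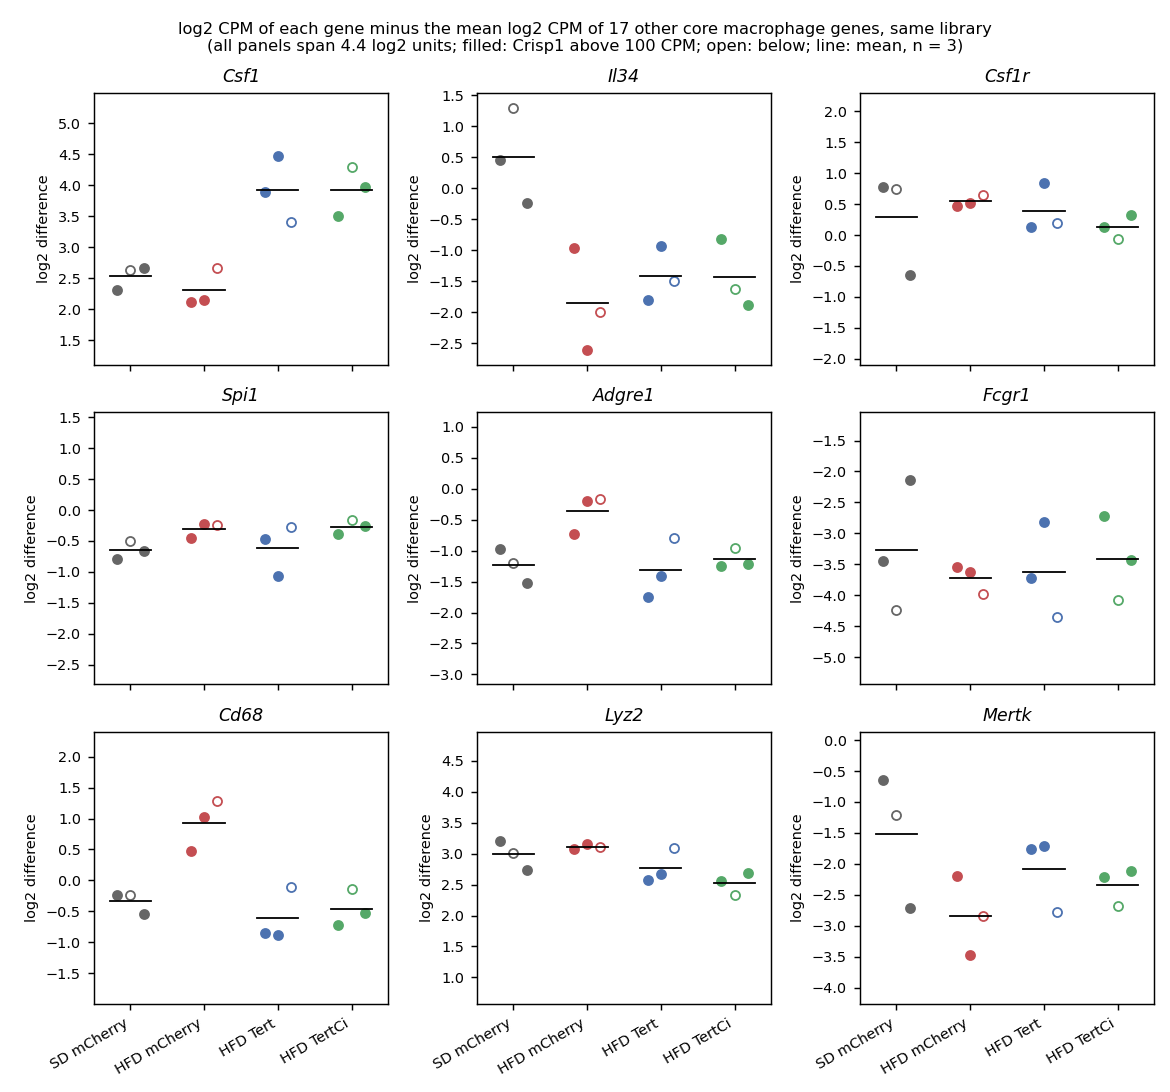
Log2 CPM of each of the 9 genes minus the mean log2 CPM of 17 other core macrophage genes in the same library; points are libraries, filled where Crisp1 was above 100 CPM and open where below, lines are means of 3, and each panel spans the same number of log2 units around its own centre. Relative to these genes, Spi1 and Lyz2 vary least over the 12 libraries, Cd68 and Adgre1 are highest in HFD mCherry, and Csf1 is higher in the knock-in libraries. The CPM of Csf1 itself overlaps among the high-fat diet groups.

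Levels of different genes were ordered only per exon length. In SD mCherry the order was Lyz2 (222 ± 49.1 CPM per kb), Csf1 (40.1 ± 7.09), Il34 (29.97 ± 18.96), Cd68 (23.0 ± 4.91), Spi1 (8.64 ± 1.78), Csf1r (8.61 ± 4.39), Adgre1 (4.82 ± 1.18), Mertk (3.46 ± 2.11) and Fcgr1 (1.61 ± 1.07; SD, n = 3 each). Of these neighbours, only Lyz2 from Csf1 and Cd68 from Spi1 were separated by the ranges of their libraries. In HFD mCherry Lyz2 (1063 ± 447) was again first, followed by Cd68 (265 ± 144), Csf1 (156 ± 74.8), Spi1 (49.4 ± 22.6), Csf1r (41.2 ± 17.2), Adgre1 (41.1 ± 21.6), Il34 (21.4 ± 3.12), Mertk (4.88 ± 0.797) and Fcgr1 (4.64 ± 1.86). Here Lyz2 from Cd68, Csf1 from Spi1 and Il34 from Mertk were separated by their ranges. Il34 thus ranked 3 on the standard diet and 7 on the high-fat diet, and Cd68 ranked 4 and 2. In both knock-in groups Csf1 ranked 2 and Cd68 ranked 3, at 133 ± 56.4 and 33.1 ± 35.0 in HFD Tert and 166 ± 94.2 and 32.7 ± 17.5 in HFD TertCi.

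The remaining genes of the pathway were taken from lists. Of 16 genes for signalling below Csf1r, 0 were called by edgeR in any comparison. For the diet 14 of 16 stood higher (10 at an unadjusted p under 0.05, median log2 fold change 1.37), and over both knock-ins 14 of 16 stood lower (7 at an unadjusted p under 0.05, median -0.77). Of all genes tested, 14.1% stood higher for the diet and 13.4% lower over both knock-ins at that p, with medians of -0.0753 and -0.0526. Syk, a kinase that relays signals from immune receptors, was at 255 ± 92.1 CPM in HFD mCherry, 34.4 ± 9.69 in SD mCherry, and 70.3 ± 58.4 and 70.1 ± 32.2 in the Tert and TertCi groups. Tyrobp, the adapter DAP12, was at 97.3 ± 45.5, 16.1 ± 1.55, 25.5 ± 24.8 and 25.9 ± 8.60 CPM in the same order, and Pik3r5, a regulatory subunit of PI3K gamma, at 265 ± 125, 30.4 ± 3.19, 119.6 ± 102 and 127 ± 78.1 CPM (SD, n = 3 each). Each of these genes thus stood higher in the knock-ins than on the standard diet on average. The libraries of Pik3r5 overlapped between the high-fat groups.

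A pair of further lists touched on the ligands and on Mertk. Sdc1, a proteoglycan that binds Il34, was at 167 ± 54.5 CPM in SD mCherry and 381 ± 74.7 in HFD mCherry, with 364 ± 45.97 and 249 ± 120.05 in the Tert and TertCi groups (SD, n = 3 each). Ptprz1, an alternative Il34 receptor, ran from 1.6002 to 68.2 CPM within SD mCherry and from 1.25 to 4.99 CPM in HFD mCherry. It ran from 2.59 to 40.6 CPM in HFD Tert (mean 20.4) and from 4.12 to 47.3 CPM in HFD TertCi (mean 30.9). Both knock-in groups thus overlapped HFD mCherry. EdgeR called neither gene, and DESeq2 called Sdc1 higher and Ptprz1 lower for the diet and Ptprz1 higher for TertCi and over both knock-ins. In all, DESeq2 called 1269 genes higher and 725 lower for the diet. It called 183 higher for TertCi and 532 higher over both knock-ins. A list of 6 genes for engulfment held relatives of Mertk, its ligands and others. Among them, Axl was at 414 ± 181 CPM in HFD mCherry, 159.8 ± 18.7 in SD mCherry, and 224 ± 34.6 and 186 ± 31.3 in the Tert and TertCi groups. Its log2 fold change was 1.37 ± 0.327 for the diet and -1.02 ± 0.270 over both knock-ins (SE, edgeR adjusted p = 0.0727 and 0.0926). Whether Axl and Mertk differed in their response was not tested. Mfge8, a bridging protein for engulfment, was at 1321 ± 934 CPM in HFD mCherry and 419 ± 125 and 417 ± 159 in HFD Tert and HFD TertCi (SD, n = 3 each). Gas6, a ligand of Mertk, stood the other way, at 232 ± 60.9 CPM in HFD mCherry and 373 ± 78.8 and 398 ± 183 in the Tert and TertCi groups (SD, n = 3 each). All 3 Tert libraries (from 285.7 CPM) were above the highest HFD mCherry library (275 CPM), while the TertCi libraries overlapped it. Over both knock-ins 4 of the 6 stood lower and 2 higher. EdgeR and limma-voom called 0 of the 6, whereas DESeq2 called 2 higher for the diet (Axl and Pros1, against 8.07% of all genes with an adjusted p). It also called Axl lower for TertCi (2.58% of all genes) and over both knock-ins (5.38%).

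Among 13 macrophage transcription factors, 12 stood higher for the diet (7 at an unadjusted p under 0.05, against 14.1% of all genes, median 1.29). Over both knock-ins 13 stood lower (6 at an unadjusted p under 0.05, against 13.4%, median -0.99). EdgeR called 0 of these factors in either comparison. Runx1 had the largest diet estimate (1.93 ± 0.423, SE) and Mitf the largest over both knock-ins (-1.52 ± 0.427, SE). Of the 17 other core macrophage genes, 17 stood higher for the diet (14 at an unadjusted p under 0.05, against 14.1% of all genes, median 2.32). Over both knock-ins 16 stood lower (16 at an unadjusted p under 0.05, against 13.4%, median -1.77). Again 0 were called in the 2 comparisons. Mpeg1, a pore-forming protein of phagocytes, led the second of these at -2.66 ± 0.552 (SE, edgeR adjusted p = 0.0560), and Cybb, the NADPH oxidase subunit, the first at 3.16 ± 0.751 (SE, edgeR adjusted p = 0.0727). DESeq2 called 13 of 17 higher for the diet (8.07% of all genes) and 12 of 17 lower over both knock-ins (5.38%). Monocyte markers divided, with 6 of 8 higher and 2 lower for the diet (median 0.84). Treml4 (3.07 ± 0.668) and Plac8 (-2.77 ± 1.76, SE) had the largest estimates. Neither was called by edgeR or limma-voom, and DESeq2 called Treml4 higher (adjusted p = 0.000447).

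Markers of other cells differed in direction. Summed over 9 genes, progenitor markers were at 7233 to 21183 CPM in HFD mCherry, 2793 to 4411 in SD mCherry, and 4203 to 10211 and 3860 to 7152 in the Tert and TertCi groups, with HFD mCherry replicate 15 the lowest of its group and HFD Tert replicate 27 the highest of its own, as for Csf1r and Cd68. Pdgfra, 1 of the 9, was called lower for TertCi and over both knock-ins (-1.70 ± 0.178, SE, edgeR adjusted p = 0.0119 over both). Mast cell markers, summed over 5 genes, were at 34.7 to 209 CPM in HFD mCherry, 11.3 to 42.4 in SD mCherry, and 18.98 to 34.2 and 20.1 to 34.9 in the Tert and TertCi groups. T cell markers stayed within 10.2 to 24.0 CPM over 7 genes in all 12 libraries. Neutrophil markers, over 8 genes of which 1 to 5 had no count in a library, were at 11.7 to 20.9 CPM in HFD mCherry and 2.92 to 11.6 CPM in the other 9 libraries. The 4 tested stood higher for the diet, 3 of them without overlap (as did 13.9% of all genes tested). Endothelial markers, over 6 genes, were at 624 to 839 CPM in SD mCherry, 868.2 to 1695 in HFD mCherry and 1219 to 3215 in the knock-ins. Among the 8 pan-leukocyte genes, 7 stood higher for the diet and Ptprc (CD45) was at 145 ± 62.9 CPM in HFD mCherry, 29.6 ± 9.75 in SD mCherry, and 46.8 ± 39.8 and 44.6 ± 9.78 in the Tert and TertCi groups, whereas Cd52 ran from 20.996 to 3016 CPM within SD mCherry. Dendritic cell markers stood higher for the diet in 6 of 6 genes (4 at an unadjusted p under 0.05, against 14.1% of all genes tested). B cell markers were at 4.23 to 27.3 CPM over 5 genes in all libraries. Adipocyte markers, summed over 6 genes, had their lowest levels in HFD mCherry (15.9 to 22.8 CPM, against 30.99 to 109 CPM in the other groups). Taken singly they divided, with 2 higher and 4 lower for the diet, and 5 higher and 1 lower over both knock-ins. Among them, Cfd (adipsin) was called lower for the diet (-5.18 ± 0.537, SE, edgeR adjusted p = 0.0220) and higher over both knock-ins (3.30 ± 0.474, SE, edgeR adjusted p = 0.0443). Mesothelial markers, summed over 5 genes, were also lowest in HFD mCherry, at 269.6 to 289.7 CPM against 412 to 1364 CPM elsewhere. Singly, 1 stood higher and 4 lower for the diet, and 4 higher and 1 lower over both knock-ins. The part of these cell types in the values of the 9 genes was not tested.

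The genes whose profiles lay nearest to the receptor and the ligands were found by the root mean square difference of centred log2 CPM over the 12 libraries, among 10598 candidates with a mean of at least 10 CPM. Nearest to Csf1r were Pamr1 (0.229), Pla1a (0.235), Tnxb (0.245), Svep1 (0.252) and Itga11 (0.255), ahead of the closest other member, Lyz2 (0.357). Tnxb encodes a tenascin of connective tissue and Itga11 a collagen-binding integrin. For Csf1 they were Ets1 (0.180), Phldb1 (0.194), Icam1 (0.216), Parvb (0.222) and Ptpre (0.227), where Ets1 is a transcription factor and Icam1 an adhesion molecule for leukocytes, and its closest member was Spi1 (0.875). Il34 had no near neighbour of that kind, the first being Pyroxd2 (0.400), Tmem164 (0.407), Rfx3 (0.449), Dmxl2 (0.452) and Idh2 (0.505). Within the set, Adgre1 and Cd68 were the closest pair (0.277), and Csf1 and Il34 the farthest apart (1.502). All these profiles share the same libraries, so the measure describes likeness in these 12 samples only.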

How the data were processed

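Poly-A selected RNA of the adipose stromal vascular fraction was sequenced in 12 mouse libraries. The authors deposited raw counts per gene symbol, 1 table per library, and the submitters' processing notes name Subread, SAMtools, featureCounts 1.6.4 and the mm10 build; the annotation, the roles of the tools and the use of strand are not given in the sources used here. Groups and replicate numbers came from the sample titles.

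Counts were tested with edgeR 4.0.16 in R 4.3.3 (filterByExpr, TMM factors 0.854 to 1.15, robust quasi-likelihood fit over all 12 libraries with 4 groups, no covariate; common biological coefficient of variation 0.536). Tests were 2-sided, with Benjamini-Hochberg adjustment over 16713 genes and a threshold of 0.05. The SE is the log2 fold change divided by the root of its F statistic. CPM is relative to the TMM-scaled library, and log2 CPM used a prior count of 2. Exon lengths are unions of GENCODE M21 exons. Alternatives were DESeq2 1.42.0, limma-voom (limma 3.58.1), other scalings and filters, an epithelial covariate, a Crisp1 block and leaving out each library. The edgeR steps were tested on simulated counts with planted changes and less spread than these libraries have. That test therefore does not give the power or the false calls at the spread seen here. The 9 genes, the 17 other lists (137 genes) and the alternatives were chosen with earlier results of these data known. Named list genes were up to 3 per list and comparison with the largest absolute log2 fold change among those with a mean of at least 1 CPM, any called list gene, and the 5 genes nearest in profile to Csf1r, Csf1 and Il34. Gas6, Hmgxb3, the Csf1 to Csf1r ratio, the Crisp1 block and the transcript length measure were added after the values were seen. No molecular identifiers are described for these counts.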

Additional observations from a re-analysis of the deposited data

How the results depend on the processing

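No paired analysis was possible because no 2 groups have a replicate number in common. The cause of the shifts below was not tested. The Crisp1 block was chosen after seeing the data. Genes called for the diet (8 by edgeR) were 1994 with DESeq2, 0 with limma-voom, 2 with DESeq2 size factors, 0 with only the groups compared, 959 with the epithelial covariate, 0 in libraries with Crisp1 and 1508 with the Crisp1 block. For Tert (0) they were 792 with DESeq2 and 979 with the covariate. For TertCi (2) they were 599 with DESeq2, 1 with library size only, 0 with only the groups compared, 522 with the covariate and 0 in libraries with Crisp1. For Tert against TertCi (0) DESeq2 called 10. Over both knock-ins (28) the numbers were 1442 with DESeq2, 12 with limma-voom, 121 with library size only, 68 with only the groups compared, 1537 with the covariate, 0 in libraries with Crisp1 and 719 with the block. Of the 9 genes (0 by edgeR), DESeq2 called 7, 4, 4 and 6 for the diet, Tert, TertCi and both knock-ins, the covariate 6, 5, 5 and 6, the block 6 and 5 for the diet and both knock-ins, and library size only 1 (Cd68) for both knock-ins. Leaving out 1 library at a time, genes called ranged from 0 to 2082 (diet), 0 to 51 (Tert), 0 to 198 (TertCi), 0 to 0 (Tert against TertCi) and 0 to 690 (both knock-ins), each highest without HFD mCherry replicate 15 where any were called, and the 9 genes from 0 to 6 (diet), 0 to 5 (both knock-ins) and 0 to 0 otherwise.

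In libraries with Crisp1, Il34 was 0.0716 for the diet and Csf1 -0.14 for TertCi, and with library size only Csf1 was 0.0498 over both knock-ins. For Tert against TertCi, limma-voom gave -0.41 for Adgre1 and -0.38 for Cd68, library size only -0.000791 for Cd68, and the Crisp1 block -0.25 for both genes. The covariate gave -0.28 (Csf1r), -0.80 (Adgre1), -0.78 (Cd68), -0.28 (Lyz2) and -0.0655 (Mertk), and libraries with Crisp1 gave -0.33, -0.93, -0.81, -0.58 and -0.14. Leaving out 1 library at a time, estimates with a sign change ranged from -0.82 to 0.14 (Il34, diet), -0.63 to 0.0828 (Csf1, Tert), -0.45 to 0.40 (Csf1, TertCi) and -0.41 to 0.24 (Csf1, both knock-ins). For Tert against TertCi these ranges were -0.72 to 0.22 (Csf1), -0.80 to 0.27 (Il34), -0.49 to 0.43 (Csf1r), -1.29 to 0.24 (Spi1), -1.35 to 0.45 (Adgre1), -1.33 to 0.53 (Cd68), -0.74 to 0.78 (Lyz2), -0.21 to 0.26 (Mertk).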
